A study of Rattus norvegicus with 14 samples.

Results

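The comparison described here set rat aortic smooth muscle cells stimulated with platelet-derived growth factor (PDGF) for 2 h against unstimulated cells collected at 0 h. It takes 5 of the 14 libraries of the series: 3 PDGF 2 h libraries and 2 unstimulated libraries, chosen by their column names. Of 17312 gene rows in the table, 10133 were tested. The PDGF 2 h cells had been kept in serum-free medium for 24 h and then received PDGF, which the labels put at 925 ng/ml; nothing else in the sources used here gives the dose, and its unit could not be checked. The unstimulated cells had 24 h without serum and no PDGF. Both groups were the same commercially supplied rat aortic cells, neither received the bromodomain inhibitor JQ1 that other groups of the series did (500 nM, from 3 h before PDGF), and all libraries came from polyadenylated RNA read strand-specifically in single 40-base reads. Unstimulated cells held for the further 2 h were not analysed here, so the effect of PDGF and that of the 2 h cannot be told apart. Nothing in the labels says that the libraries of a group came from separate cultures, so the p-values measure the spread between libraries of a group, which may be technical. That spread was estimated over all 14 libraries of the series in 5 groups, the JQ1 and 24 h groups included.

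PDGF acts on smooth muscle through a pair of receptor tyrosine kinases, PDGFRα and PDGFRβ, which on binding the growth factor activate the Ras and ERK cascade, phosphoinositide 3-kinase and phospholipase Cγ. Within minutes such signals switch on genes whose transcription needs no new protein, many of which code for transcription factors, and within hours the products of these genes act on later targets. In the artery, PDGF is known as a mitogen and attractant of smooth muscle cells that leave their contractile state after injury.

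The libraries carried the markers of smooth muscle. The summed level of 6 contractile markers (Acta2, Tagln, Myh11, Cnn1, Lmod1 and Smtn) was 10850 to 11490 unnormalised FPKM (fragments per kilobase of transcript, scaled to the size of the library) in the PDGF 2 h libraries and 10010 to 10410 in the unstimulated libraries. The markers were uneven in level. Acta2 had means of 6012 normalised FPKM with PDGF and 5251 without, and Myh11 had 5.005 and 5.365. Of 10 endothelial markers, 5 (Pecam1, Cdh5, Tie1, Emcn and Cldn5) were listed at 0 in all 5 libraries, as were 7 of 10 leukocyte markers, and the sums of those lists were 1.94 to 11.3 FPKM (endothelial) and 17.9 to 22.9 FPKM (leukocyte) with PDGF, against 5.48 to 5.84 FPKM and 13.8 to 17.7 FPKM in unstimulated cells. The 7 adventitial fibroblast markers in the table summed to 132 to 140 FPKM with PDGF and to 161 to 164 FPKM without, with Dcn and Dpt at 0 throughout. The files hold no counts, so read depth is unknown. Genes above 0 numbered 11384, 9901 and 11068 in the PDGF 2 h libraries and 10473 and 11152 in the unstimulated libraries. The PDGF library with 9901, numbered 1 in the file headers, also had its low values moved up by 1.03 (log2) in the authors' normalisation, where the other 4 libraries moved by -0.15 to 0.11. A value of 0 here can be a failed estimate: Hspa8 and Hsp90aa1, chaperone genes that every cell uses, had at most 0.0801 unnormalised FPKM in these 5 libraries. Rank correlations across genes were 0.95 to 0.98 between PDGF 2 h libraries and 0.97 between the unstimulated libraries, and 0.88 to 0.92 between the groups. In a bulk sample, fewer cells of a type and less RNA per cell cannot be told apart.

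PDGF at 2 h came with a change in 3078 of 10133 genes, or 30.4% of those tested (limma on log2(normalised FPKM + 1), Benjamini-Hochberg adjusted p under 0.05). Of these, 1796 genes (17.7%) were higher with PDGF and 1282 (12.7%) were lower. The counts of lists and families given below are to be read beside these shares. A difference of 2-fold or more was seen for 766 higher genes (7.56%) and 470 lower genes (4.64%). The groups did not overlap for 1777 of the 1796 higher genes and 1266 of the 1282 lower genes. A lack of overlap given below for a called gene therefore adds little to its call. Large differences ran mostly upward: 95 genes were higher by 8-fold or more and 5 were lower by as much, and the counts at 32-fold were 18 and 1. Of the 5 genes lower by 8-fold or more, 2 were the microRNA loci Mir3120 and Mir214, whose PDGF values were uneven, and the other 3 were Txnip, Klf15 and Smad6. The called-higher genes took 31.8% to 32.7% of all unnormalised gene FPKM in the PDGF 2 h libraries and 20.2% to 20.4% in the unstimulated libraries. The called-lower genes took 2.32% to 2.68% with PDGF, against 5.77% to 5.81% without. These genes were selected by their difference in the same libraries, so the direction of the shares follows from the selection and only their size is descriptive. The unstimulated group has 2 libraries, and the counts rest on both: without unstimulated library 0 they were 1019 higher and 582 lower, and without unstimulated library 1 they were 1335 and 618. Fold changes here are on the log2(normalised FPKM + 1) scale, which understates the change of genes at low levels.

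**Figure D1:**
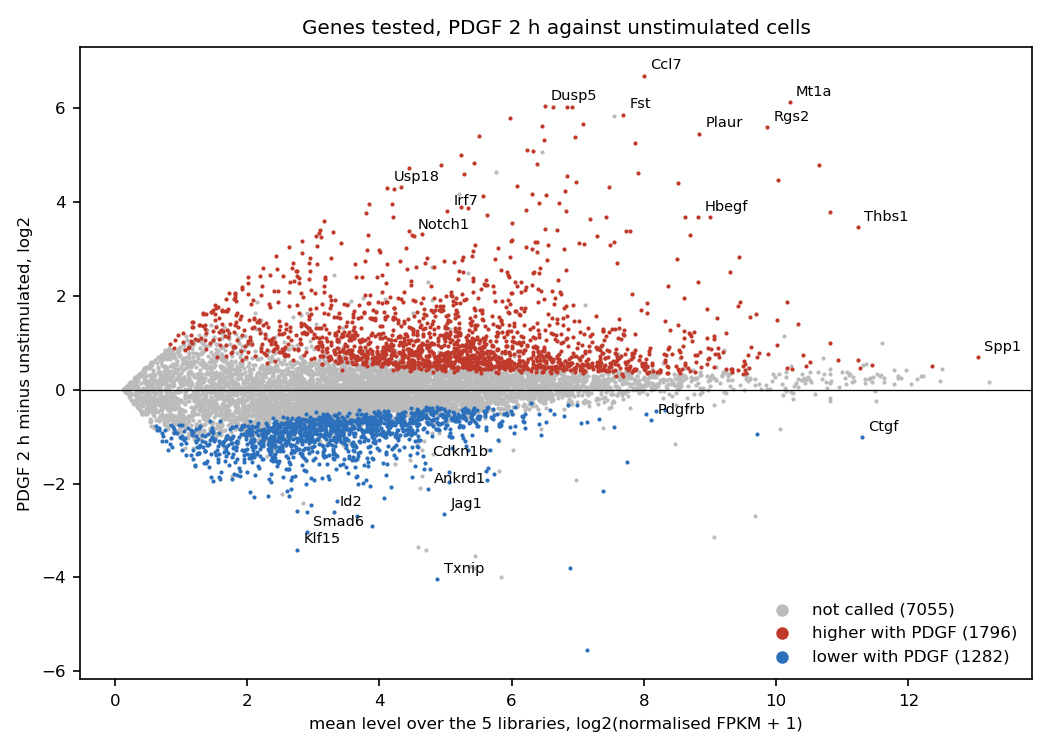
Log2 difference, PDGF 2 h minus unstimulated (y axis), against the mean level over the 5 libraries as log2(normalised FPKM + 1) (x axis), 1 point a gene; red points were called higher with PDGF (1796), blue points lower (1282) and grey points not called (7055). At levels over 6, 555 genes were called higher and 34 lower, while between 2 and 4 the counts were 375 and 734. The level takes in the PDGF libraries, so the axes are not independent.

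The direction of the calls differed with the level of the gene. That level was the mean over the same 5 libraries, 3 of them with PDGF. A rise with PDGF thus lifts a gene's level and a fall reduces it, so part of the pattern is built in. Among 1568 genes with a mean level over 6 on the log2 scale, 555 were called higher and 34 lower. Among 3599 genes between 2 and 4, 375 were called higher and 734 lower. The same order was seen on the unnormalised scale within the same level groups, which share this limit. There were 622 higher and 72 lower genes over 6, and 419 higher and 1012 lower genes between 2 and 4. The called-higher list was nearly the same on both scales: 1760 genes were called higher on both, 98.0% of the 1796 on the normalised scale and 87.3% of the 2017 on the unnormalised scale. The called-lower lists shared 1265 genes, 98.7% of the 1282 normalised calls and 64.6% of the 1957 unnormalised calls. The number of lower calls changed with the scaling, and the genes given below as called were called on both scales unless said otherwise. Some list counts given below also had more lower calls on the unnormalised scale: 1 cytokine receptor gene, 1 tRNA synthetase gene, 2 integrin genes, 3 potassium channel genes, 2 prostaglandin or vasoactive genes, 2 polyamine or nucleotide genes, 2 complex I genes (with 1 higher) and 3 interferon-response genes. Spike-in transcripts took 1.82% to 2.29% of the unnormalised FPKM in the PDGF 2 h libraries and 2.53% to 2.78% in the unstimulated libraries, and their part in these counts was not tested.

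The transcription factor genes that respond first to growth factors were the list with the most complete rise. Of 26 tested, 25 were higher with PDGF and 1, Klf2, was lower, with a median difference of 2.73 (log2) where the median of all genes tested was 0.01. Members differed in the size of the difference at 2 h. Fos, the classic early gene, had 6.97, 11.4 and 8.95 normalised FPKM in the PDGF 2 h libraries and 1.76 and 0.558 in the unstimulated libraries. Its relatives of slower onset stood higher: Fosl1, which codes for another partner of Jun proteins, had 179, 226 and 259 FPKM with PDGF, against 5.36 and 1.96 FPKM without, a log2 difference of 5.66 ± 0.25 (SE, limma adjusted p = 1.28e-10). The orphan nuclear receptor genes split in the same way. Nr4a3 had 142, 167 and 179 FPKM with PDGF and 1.71 and 1.33 FPKM without. Nr4a1 had 187, 212 and 211 FPKM with PDGF and 4.21 and 3.55 FPKM without, while Nr4a2 differed by 1.09 ± 0.28 (log2, SE). In Fosl1, Nr4a1 and Nr4a3 no PDGF library came near an unstimulated one. Klf2, a factor best known from endothelium, fell to 3.46, 4.85 and 3.94 FPKM in the PDGF 2 h libraries, against 7.03 and 7.01 FPKM in the unstimulated libraries.

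Most genes that restrain the ERK pathway were higher too. ERK phosphatases of the Dusp family, the Sprouty and Spred adaptors and the receptor inhibitor Errfi1 are known as delayed negative feedback on receptor tyrosine kinases. Of 21 such genes tested, 16 were higher with PDGF and none was lower, with a median difference of 1.28 (log2). Dusp5, which codes for a nuclear ERK phosphatase, led the list with 121, 154 and 171 FPKM in the PDGF 2 h libraries and 1.99 and 0.686 FPKM in the unstimulated libraries, a log2 difference of 6.04 ± 0.24 (SE, limma adjusted p = 3.68e-11). Errfi1, which binds and inhibits the epidermal growth factor (EGF) receptor, had 124, 152 and 163 FPKM with PDGF and 3.22 and 2.22 FPKM without. Spry2 stood at 266, 234 and 316 FPKM with PDGF, against 20.8 and 19.7 FPKM in unstimulated cells. All of these groups were far apart, with the lowest PDGF library many times above the highest unstimulated one. Among the phosphatases the size of the difference varied widely. Dusp6, the cytoplasmic ERK phosphatase, differed by 2.96 ± 0.16 (log2, SE), Dusp4 by 3.76 ± 0.40 and Dusp10, which prefers the stress-activated kinases, by 3.29 ± 0.22. Dusp1, often used as an early-response marker, had 97.7, 109.5 and 117 FPKM with PDGF and 73.5 and 85.6 FPKM without. The difference was 0.44 ± 0.15, and the series holds no time between 0 and 2 h. Spry1, Spred1, Dusp8, Dusp14 and Dusp16 did not pass the test.

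The promoter of Dusp5 is printed because it was the called member of this list with the largest difference and because its window held a motif tied to growth factor signalling. The CArG box is the binding motif of serum response factor (Srf), and 1.22% of 8641 promoter windows (8231 of the genes tested, some with more than 1 window) held one, each window running from 250 bases before the annotated start to 50 after it. The Dusp5 window held a pair of them in a row, with first bases 82 and 72 bases before the start. The sequence is RefSeq's (rat build GRCr8, chr1:262543524-262543823, plus strand), read 5′ to 3′, with the CArG boxes in capitals.
Dusp5: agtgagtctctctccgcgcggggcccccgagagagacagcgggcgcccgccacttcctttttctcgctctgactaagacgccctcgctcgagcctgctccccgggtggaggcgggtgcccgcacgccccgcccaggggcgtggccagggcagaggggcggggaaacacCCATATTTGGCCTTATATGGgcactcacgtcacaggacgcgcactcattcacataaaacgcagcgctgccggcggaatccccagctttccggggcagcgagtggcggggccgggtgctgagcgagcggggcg
Of 22 windows of the ERK feedback genes, 1 held a CArG box (4.55%), that of Dusp5. Among 17 windows of the early transcription factor genes, 3 held a CArG box, those of Egr1, Egr2 and Klf6. The windows of Fosl1, Fosb, Nr4a1 and Errfi1 held none. The share of windows with a CArG box was 1.09% over all called-higher genes and 1.0% over called-lower genes. The cyclic AMP response element TGACGTCA (both strands) was in 5.12% of called-higher windows, 2.73% of called-lower windows and 3.38% of all windows. The AP-1 motif TGACTCA was in 4.99%, 3.1% and 3.49%. A match describes the letters of the window and shows no binding.

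Proteins that shorten the life of messenger RNAs made up a smaller group of feedback genes. Of 11 tested, 7 were higher with PDGF and 1 was lower; with either unstimulated library left out, 4 were higher. Zfp36, which codes for tristetraprolin, a protein that brings the deadenylase to AU-rich messages, had 95.99, 94 and 126 FPKM with PDGF and 21.8 and 24.3 FPKM without. The anti-proliferative genes Btg1 and Btg2, whose products also bind the deadenylase, moved in opposite directions. Btg2 had 123, 129 and 124 FPKM in the PDGF 2 h libraries and 21.5 and 22 FPKM in the unstimulated libraries (log2 difference 2.47 ± 0.13, SE). Btg1 had 112, 116 and 131 FPKM with PDGF and 332 and 373 FPKM without (log2 difference -1.55 ± 0.13).

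Growth factor genes changed member by member. Of 34 listed, 24 were tested; 11 were higher with PDGF and 2 were lower, and the median difference was -0.004 (log2). The ligands of the EGF receptor were among the higher ones. Hbegf, which codes for heparin-binding EGF-like growth factor, had 619, 712 and 812 FPKM with PDGF and 53.5 and 55.99 FPKM without, a log2 difference of 3.67 ± 0.14 (SE, limma adjusted p = 2.48e-11). Areg (amphiregulin) had 8.25, 10.6 and 11.4 FPKM with PDGF and 0.292 and 0.155 FPKM without. Ereg (epiregulin) had 5.800, 17.7 and 8.36 FPKM with PDGF and 0.254 and 1.14 FPKM without, so both were near the bottom of the scale in unstimulated cells. Tgfa, Btc and Nrg1, ligands of the same receptor family, did not pass the test. The genes of PDGF itself divided: Pdgfa had 133, 165 and 176 FPKM with PDGF and 44.5 and 45.5 FPKM without. Pdgfb had 40.5, 52.9 and 69.9 FPKM with PDGF and 11.6 and 15.6 FPKM without, so neither gene's groups overlapped. Pdgfc was called lower (-1.61 ± 0.52, log2, SE), with 5.44, 0.201 and 4.41 FPKM with PDGF and 13.8 and 6.64 FPKM without, and its value in PDGF library 1 was listed at 0 before normalisation. Pdgfd was not called. Fgf2, a smooth muscle mitogen, had 15.5, 27.2 and 27.8 FPKM with PDGF and 1.57 and 2.505 FPKM without. Fgf18 was lower with PDGF, at 24.9, 14.5 and 35.3 FPKM against 65.8 and 98.5 FPKM without.

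The genes of the PDGF receptors themselves were lower. Pdgfrb, the main receptor of arterial smooth muscle, had 189.7, 233 and 253 FPKM in the PDGF 2 h libraries and 324 and 383 FPKM in the unstimulated libraries, a log2 difference of -0.65 ± 0.14 (SE, limma adjusted p = 0.00305). Pdgfra had 3.19, 5.73 and 4.83 FPKM with PDGF and 9.22 and 9.697 FPKM without (-0.93 ± 0.23, adjusted p = 0.00601). In both genes every PDGF library was below every unstimulated one, and both calls were lost when unstimulated library 1 was left out. Some other receptors went the other way: of 18 receptor genes tested, 5 were higher, 3 lower and 10 not called. Flt1, a receptor of vascular endothelial growth factor known mainly from endothelium, had 59.9, 82.9 and 88.9 FPKM with PDGF and 5.12 and 4.64 FPKM without (3.71 ± 0.18, log2, SE). Of the 10 endothelial markers given above, 5 were listed at 0 in all 5 libraries. The markers summed to 9.61, 1.94 and 11.3 unnormalised FPKM with PDGF and to 5.84 and 5.48 without. Which cells the Flt1 reads came from was not tested. Epha2, an ephrin receptor, had 106, 122 and 153 FPKM with PDGF and 15.7 and 15.4 FPKM without. Egfr, whose ligand genes were higher, had 8.05, 10.9 and 14.8 FPKM with PDGF, against 3.58 and 4.91 FPKM without. Igf1r, Insr, Fgfr1 and Met did not pass the test.

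**Figure D2:**
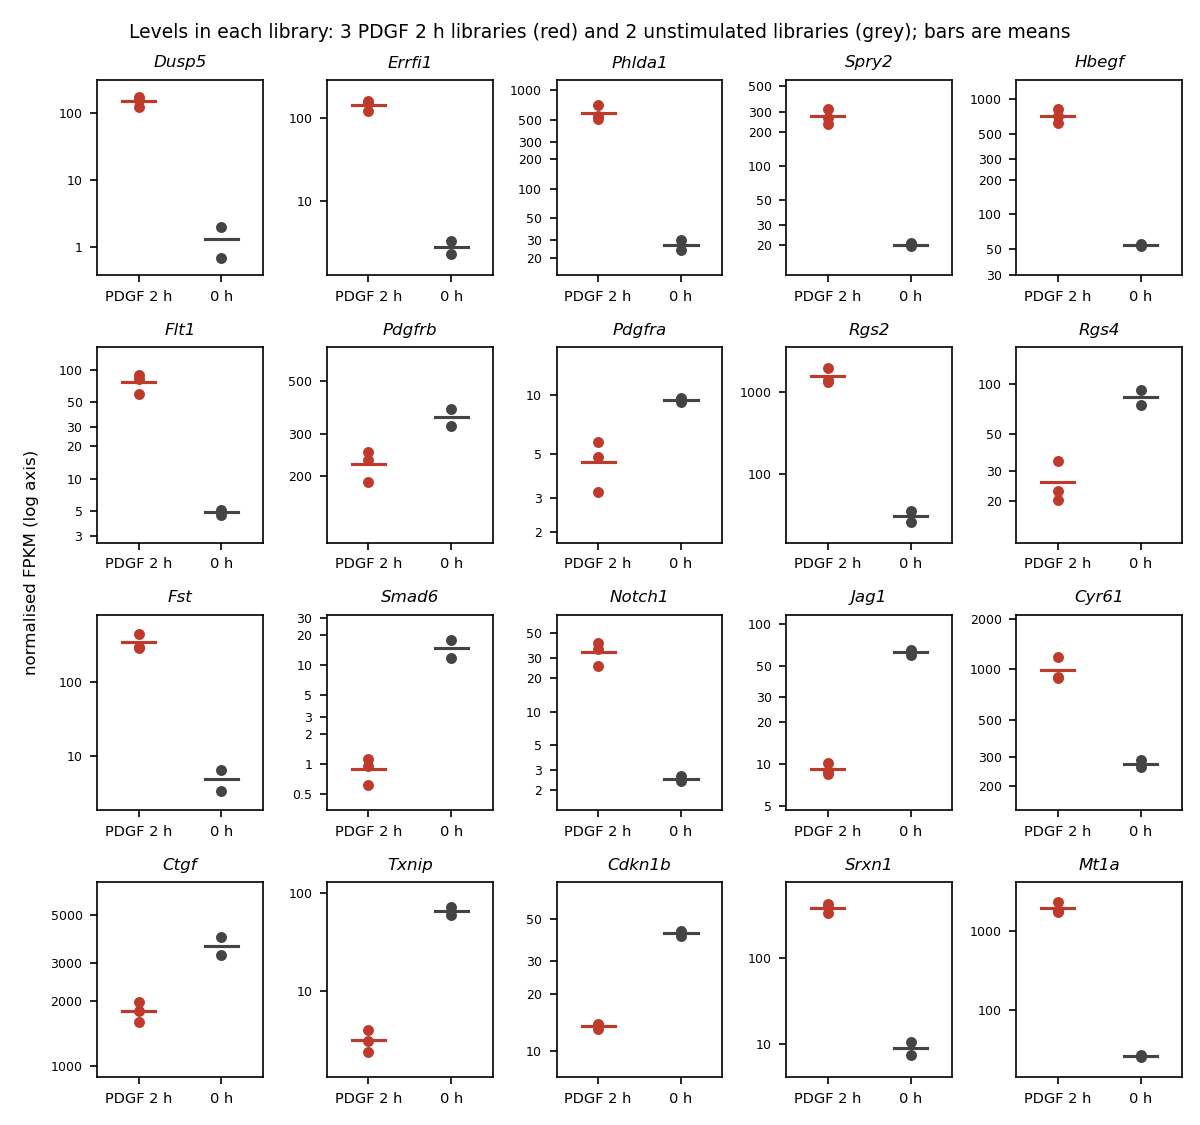
Normalised FPKM (y axis, log scale, a separate range for each gene) of 20 genes in each of the 3 PDGF 2 h libraries (red, left) and the 2 unstimulated libraries (grey, right); short lines are means. Within each gene the groups stand apart, for example Dusp5 at 121, 154 and 171 with PDGF and 1.99 and 0.686 without, and Jag1 at 8.97, 8.42 and 10.2 with PDGF and 60.6 and 64.9 without.

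Most cytokine genes tested were higher with PDGF. Of 31 cytokine and chemokine genes listed, 15 were tested, of which 12 were higher with PDGF and 1 was lower. A gene under 1 normalised FPKM in both unstimulated libraries could be tested only through stimulated libraries in which it was higher. The filter can thus raise the share of higher calls among tested genes, here and in other lists. Ccl2, an attractant of monocytes, had 205, 192 and 195 FPKM with PDGF, against 1.94 and 2.19 FPKM without. Its neighbour in function, Ccl7, had 412, 455 and 404 FPKM with PDGF, against 2.59 and 3.73 FPKM without. The 3 cytokines of the gp130 family in this list with the largest differences were Lif (leukaemia inhibitory factor), Clcf1 and Il11. Lif had 79.8, 114 and 113 FPKM with PDGF and 0.329 and 1.55 FPKM without, and Clcf1 had 98.2, 121 and 134 FPKM with PDGF and 8.83 and 5.96 FPKM without. Cxcl12, the ligand of Cxcr4, was the exception, at 567, 573 and 695 FPKM with PDGF and 1098 and 1261 FPKM without (-0.95 ± 0.17, log2, SE).

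Of 23 cytokine receptor and Socs genes tested, 15 were higher with PDGF and none was lower, with a median difference of 1.503 (log2). Osmr, the oncostatin M receptor and a partner of gp130, had 50.01, 74.3 and 66.8 FPKM with PDGF and 8.88 and 7.02 FPKM without, while Il6st, which codes for gp130, and Lifr did not pass the test. Il1rl1, the receptor of the alarmin Il33, had 59.8, 84.1 and 80.9 FPKM with PDGF, against 3.12 and 3.55 FPKM without (4.12 ± 0.21, log2, SE). Its partner chain Il1rap had 53.3, 84.8 and 74.8 FPKM with PDGF and 12.3 and 16.2 FPKM without. Tnfrsf12a, the receptor of the cytokine TWEAK, had 912, 1018 and 1252 FPKM with PDGF and 141 and 157 FPKM without, the highest level among the receptor genes of this list. The feedback inhibitors of Janus kinase signalling on the list were each called higher. Socs3 had 24.1, 57.9 and 36.1 FPKM with PDGF and 4.41 and 4.49 FPKM without, and Socs1, Socs2, Socs5 and Cish differed by 1.504, 1.68, 2.83 and 2.54 (log2). Genes of the NF-κB system changed less: 6 of 16 tested were higher and 1 was lower. Nfkb1 differed by 1.88 ± 0.18 (log2, SE) and the adhesion molecule gene Icam1 by 2.24 ± 0.16, but Nfkbia, the usual early target of the pathway, did not pass the test (0.23 ± 0.19).

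Genes around G protein signalling split by family member. Rgs proteins end the signal of G protein coupled receptors, and of 10 tested, 4 were higher and 2 were lower (1 lower without unstimulated library 0). Rgs2, which acts on the Gq signal of vasoconstrictors, had 1387, 1306 and 1919 FPKM with PDGF and 35.6 and 26.1 FPKM without (5.59 ± 0.18, log2, SE, limma adjusted p = 7.05e-12). Rgs16 had 121, 146 and 165 FPKM with PDGF and 1.25 and 2.83 FPKM without. Rgs4 ran the other way, at 20.2, 34.6 and 22.8 FPKM with PDGF and 74.7 and 91.8 FPKM without (-1.68 ± 0.22). Rgs5, a gene of arterial smooth muscle and pericytes, had 1.67, 0.209 and 5.14 FPKM with PDGF and 7.46 and 5.08 FPKM without and did not pass the test. Among 22 prostaglandin and vasoactive genes tested, 8 were higher and 1 was lower (4 higher without unstimulated library 0). The inducible cyclooxygenase gene Ptgs2 had 107, 146 and 136 FPKM with PDGF and 3.46 and 2.29 FPKM without, whereas the constitutive Ptgs1 was not called. The sphingosine phosphate receptor genes S1pr1 and S1pr3 differed by 1.56 ± 0.25 and 1.22 ± 0.15 (log2, SE). Npr3, the clearance receptor of natriuretic peptides, was lower at 86.9, 116 and 110.1 FPKM with PDGF, against 158 and 186 FPKM without. The potassium channel gene Kcnn4, which codes for a calcium-activated channel of proliferating smooth muscle, had 123, 116 and 166 FPKM with PDGF and 7.92 and 7.23 FPKM without. It was 1 of 4 potassium channel genes called higher among 20 tested; the other 3 (Kcnj4, Kcnj14 and Kcnk3) had at most 7.58 FPKM in any of the 5 libraries.

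In the transforming growth factor β (TGF-β) and bone morphogenetic protein (BMP) family, extracellular antagonists and some ligands were higher. Of 27 ligand, receptor and antagonist genes tested, 8 were higher with PDGF and 4 were lower (2 lower without unstimulated library 1). Of these 27, 44.4% were called, where 30.4% of all genes tested were. Fst, which codes for follistatin, the activin trap, had 289, 286 and 440.2 FPKM with PDGF and 6.500 and 3.37 FPKM without (5.86 ± 0.28, log2, SE). Inhba, the gene of the activin A subunit that follistatin binds, had 194, 329 and 354 FPKM with PDGF and 39.4 and 45.9 FPKM without. Grem1, a BMP antagonist, and Tgfb1 itself differed by 1.53 ± 0.13 and 1.56 ± 0.15. Bmp2 and Bmp4, closely related ligands, moved apart: Bmp2 had 9.24, 7.403 and 7.95 FPKM with PDGF and 0.701 and 1.08 FPKM without, and Bmp4 had 69.2, 58.9 and 92.5 FPKM with PDGF and 106 and 129 FPKM without. Gdf6, a BMP-type ligand, showed the largest fall of the list, with 6.78, 7.75 and 6.09 FPKM with PDGF and 27.6 and 37.5 FPKM without (-2.08 ± 0.20).

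Inside the cell, the inhibitory Smads moved in opposite directions. Smad6, the inhibitor of the BMP branch, had 0.947, 0.618 and 1.12 FPKM in the PDGF 2 h libraries and 11.7 and 17.9 FPKM in the unstimulated libraries (-3.04 ± 0.28, log2, SE, limma adjusted p = 7.18e-07). Smad7, which acts mainly on the TGF-β branch, had 32.9, 43.5 and 38.2 FPKM with PDGF and 13.4 and 15.6 FPKM without (1.33 ± 0.16, adjusted p = 1.4e-05). The groups of each gene did not overlap. Id genes, which code for inhibitors of bHLH factors and are BMP targets in many cells, also split: Id3 had 525, 499.6 and 579 FPKM with PDGF and 231 and 237 FPKM without, while Id2 had 3.29, 0.219 and 4.83 FPKM with PDGF and 20.4 and 15.8 FPKM without. Id1 was called lower (10.9, 3.26 and 17.9 FPKM with PDGF, 27.7 and 20.6 FPKM without), but this call was lost without PDGF library 1, and also with either unstimulated library left out. Id2 was listed at 0 in PDGF library 1 before normalisation. Over the 15 Smad, Smurf, Tgif and Id genes tested, 5 were higher and 4 lower; 3 were higher and 2 lower with either unstimulated library left out, and 3 were higher and 3 lower when PDGF library 1 and a 24 h library with similarly raised low values were left out together.

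Notch1 and its ligand gene Jag1 changed in opposite directions, as did the Frizzled receptors of Wnt. Notch1 had 25.7, 36.1 and 40.5 FPKM with PDGF and 2.65 and 2.38 FPKM without (3.297 ± 0.20, log2, SE, limma adjusted p = 4.46e-09). Jag1 had 8.97, 8.42 and 10.2 FPKM with PDGF and 60.6 and 64.9 FPKM without (-2.65 ± 0.15, adjusted p = 2.22e-09). Notch3, the receptor most tied to arterial smooth muscle, had 14.8, 19.2 and 21.5 FPKM with PDGF and 24.3 and 27.8 FPKM without and did not pass the test, though it was called lower on the unnormalised scale. Hey2, a Notch target gene of arteries, was lower (21.7, 37.5 and 20.8 FPKM with PDGF, 52.6 and 59.5 FPKM without), and Hes1, another target, was higher (9.37, 10.97 and 10.7 FPKM with PDGF, 6.21 and 4.18 FPKM without). Of 17 Wnt pathway genes tested, 3 were higher and 3 lower (35.3% called), near the 30.4% called of all genes tested. On the unnormalised scale 3 were higher and 6 lower of 16. Fzd1 had 5.88, 7.13 and 7.23 FPKM with PDGF, against 22.5 and 23.2 FPKM without. Fzd2 had 16.4, 26.8 and 24.98 FPKM with PDGF, against 85.95 and 89.2 FPKM without, so both fell below every unstimulated value. Fzd4 and Fzd6 were higher by 0.76 ± 0.21 and 0.77 ± 0.16 (log2, SE). Without unstimulated library 0, 1 Wnt gene was called higher.

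Genes that answer to Srf and its actin-sensing partners, or to YAP, did not move as a block. Of 26 tested, 10 were higher and 3 were lower. The matricellular CCN genes are often listed together as YAP targets, yet Cyr61 had 904, 892 and 1180.0 FPKM with PDGF and 258 and 284 FPKM without (1.86 ± 0.15, log2, SE), and Ctgf had 1803, 1597 and 1969 FPKM with PDGF and 3261 and 3925 FPKM without (-1.004 ± 0.15). Wisp1 went with Cyr61 (1.18 ± 0.27) and Wisp2 with Ctgf (-0.68 ± 0.19). Ankrd1, another gene commonly read as a YAP target, had 13.2, 7.48 and 10.8 FPKM with PDGF and 44.6 and 51.9 FPKM without. In the same list, Vcl (vinculin), Zyx (zyxin) and Actn1 (α-actinin) were called higher, by 0.697 ± 0.14, 0.66 ± 0.16 and 0.88 ± 0.16. Srf had 33.6, 35.5 and 46.6 FPKM with PDGF and 20.2 and 22.9 FPKM without. Of the integrin genes, 3 of 11 tested (27.3%) were higher, where 17.7% of all genes tested were. The largest difference was that of Itga5, the fibronectin receptor subunit, at 233, 287 and 347 FPKM with PDGF and 31.96 and 31.1 FPKM without. Sema7a, a membrane semaphorin that binds integrins, had 173, 187 and 248 FPKM with PDGF and 7.56 and 9.11 FPKM without.

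Contractile genes gave few calls, 10.0% of those tested, where 30.4% of all genes tested were called. Of 20 tested, 2 were higher and none was lower on the normalised scale, while on the unnormalised scale 2 were higher and 5 lower, and without PDGF library 1 the counts were 2 higher and 3 lower. Acta2, the smooth muscle actin gene, had 5726, 5262 and 7048 FPKM with PDGF and 4814 and 5688 FPKM without, groups that overlapped (0.19 ± 0.18, log2, SE, limma adjusted p = 0.467). Myh11, the smooth muscle myosin gene, had 3.68, 6.53 and 4.81 FPKM with PDGF and 5.12 and 5.61 FPKM without. Cnn1 (calponin) was called higher, at 588, 641 and 796 FPKM with PDGF, against 282 and 358 FPKM without. Matrix and protease genes moved much further, with 16 of 27 tested higher and 2 lower. Genes of the plasminogen system were among them: Plat (tissue plasminogen activator) had 316, 363 and 359.6 FPKM with PDGF and 36.3 and 28.7 FPKM without. Plaur, the urokinase receptor, had 679, 696 and 875 FPKM with PDGF and 17.6 and 14.6 FPKM without. Thbs1 (thrombospondin) had 2885, 3505 and 5039 FPKM with PDGF, against 309 and 367 FPKM without. Tnfaip6, whose product binds hyaluronan, had 179, 202 and 172 FPKM with PDGF, against 10.8 and 4.304 FPKM without. Collagen genes changed little by comparison: 2 of 16 tested, Col18a1 and Col27a1, were higher and none was lower, and on the unnormalised scale 4 were higher and 2 lower.

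Families of transcription factors also divided. Of 13 Krüppel-like factor genes tested, which include Klf2, Klf4, Klf6 and Klf10 of the early list, 6 were higher and 5 lower (3 lower with either unstimulated library left out). Klf4 and Klf10 rose by 1.85 ± 0.17 and 2.07 ± 0.20 (log2, SE). Klf7 and Klf11 were lower, by -1.05 ± 0.27 and -1.603 ± 0.31, with Klf11 listed at 0 in PDGF library 1 before normalisation. Sox9, a chondrogenic factor, had 126, 144 and 156 FPKM with PDGF and 12.6 and 11.96 FPKM without, and Sox4 had 4.99, 7.73 and 4.14 FPKM with PDGF and 32.05 and 29.98 FPKM without. Hox genes were mostly too low to test; of 5 tested, Hoxa2 and Hoxb4 were lower. In the large Zfp family 31 of 143 tested genes were lower and 13 higher, with 52 lower and 18 higher of 141 on the unnormalised scale. On the normalised scale 30.8% of the family was called, near the 30.4% of all genes tested. The lower count fell to 9 without unstimulated library 0 and to 12 without unstimulated library 1. Of the 143, 124 (86.7%) had a mean level under 4 (log2), where 52.4% of all genes tested lay. Lower calls also outnumbered higher ones among all 3599 genes between 2 and 4, at 734 and 375, by a level that takes in the PDGF libraries. The part of level in the Zfp count was not tested.

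Genes known to be shut off when growth factors arrive included the protein-coding gene with the largest fall, but did not fall as a class. Many are targets of FoxO factors, which phosphoinositide 3-kinase and Akt exclude from the nucleus. Of 25 such genes tested, 7 were lower and 6 higher with PDGF, with a median of -0.32 (log2), and without PDGF library 1 the counts were 10 lower and 5 higher. Txnip, the thioredoxin-binding arrestin that limits glucose uptake, had 2.37, 3.99 and 3.09 FPKM in the PDGF 2 h libraries and 60.4 and 72.3 FPKM in the unstimulated libraries (-4.03 ± 0.18, log2, SE, limma adjusted p = 1.12e-10). Klf15, a metabolic factor of muscle and liver, had 0.412, 0.406 and 0.349 FPKM with PDGF and 15.8 and 12 FPKM without. Ccng2, an unusual cyclin tied to cell cycle exit, had 2.83, 3.11 and 2.62 FPKM with PDGF and 17.9 and 20.03 FPKM without. Sesn1, a sestrin gene, had 1.78, 0.508 and 2.16 FPKM with PDGF, against 5.57 and 6.13 FPKM without. Of the FoxO genes themselves, Foxo1 was higher, at 19.98, 29.4 and 31.3 FPKM with PDGF and 10.6 and 7.497 FPKM without, Foxo3 was higher by 0.93 ± 0.24, and Foxo4 did not pass the test. Arrdc4, the arrestin gene closest to Txnip in function, did not pass the test (-0.29 ± 0.41). Outside the list, Cirbp, which codes for a cold-inducible RNA-binding protein, had 5.88, 0.712 and 4.43 FPKM with PDGF and 30.6 and 27.7 FPKM without, and Kctd7 had 1.64, 4.32 and 3.24 FPKM with PDGF and 22.5 and 26.4 FPKM without, so both fell below every unstimulated value.

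The promoter of Klf15, the member with the second largest fall, is shown as the example of a lower gene whose window held a searched motif; the Ccng2 window held none. The E-box CACGTG, bound by Myc and by the clock factors among others, began 101 bases before the start and is in capitals (RefSeq, GRCr8, chr4:124522765-124523064, plus strand).
Klf15: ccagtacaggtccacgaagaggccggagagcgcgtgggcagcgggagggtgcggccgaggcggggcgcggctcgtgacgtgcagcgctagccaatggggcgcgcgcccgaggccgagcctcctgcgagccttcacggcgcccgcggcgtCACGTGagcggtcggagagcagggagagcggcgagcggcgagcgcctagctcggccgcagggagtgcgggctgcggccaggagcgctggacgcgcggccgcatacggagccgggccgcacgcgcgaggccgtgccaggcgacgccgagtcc
An E-box is common: 9.48% of all windows held one, beside 9.92% of called-higher and 10.1% of called-lower windows.

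Cell cycle brakes and Myc partners also changed by member. Of 24 tested, 8 were higher and 5 lower (5 higher and 3 lower without unstimulated library 0). Cdkn1b, the cyclin kinase inhibitor that holds cells in quiescence, had 13.1, 13.9 and 13.8 FPKM with PDGF and 40.5 and 43.5 FPKM without (-1.56 ± 0.16, log2, SE). Its relative Cdkn1a ran the other way, at 219, 193 and 279.7 FPKM with PDGF and 90.8 and 103 FPKM without. Myc had 86.6, 105 and 111 FPKM with PDGF and 50.04 and 63.8 FPKM without, a smaller difference (0.82 ± 0.15) than that of most early genes. Of the Max partners that oppose Myc, Mnt, Mxi1 and Mxd4 were called lower, by -1.24, -0.87 and -0.84 (log2), while Mxd1 and Mxd3 did not pass the test. Ccnd1 (cyclin D1) had 77.8, 78.2 and 98.6 FPKM with PDGF and 83.5 and 91.02 FPKM without, groups that overlapped (-0.05 ± 0.13, adjusted p = 0.824).

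The circadian clock genes were called in both directions, 5 higher and 4 lower of 14 tested. Arntl, which codes for the activator BMAL, had 18.6, 15.3 and 19.2 FPKM with PDGF and 5.09 and 4.94 FPKM without (1.63 ± 0.19, log2, SE). Dbp, an output factor that such activators drive, had 4.82, 6.31 and 4.296 FPKM with PDGF, against 17.9 and 18.2 FPKM without. Its relative Tef had 5.07, 5.57 and 6.81 FPKM with PDGF, against 11.2 and 11.1 FPKM without, again with every PDGF library lower. Per1 and Per2, repressors known to answer acutely to serum, differed by 0.64 ± 0.22 and 0.72 ± 0.21. Apart from Arntl, the higher calls were small: without unstimulated library 0, 1 clock gene was called higher and 2 lower. The labels do not give the hour at which cells were collected.

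Of 19 genes of metal and oxidant defence tested, 11 were higher and none was lower, with a median difference of 0.72 (log2). The metallothionein gene Mt1a had 1750.0, 1792 and 2308 FPKM with PDGF, against 27.7 and 25.6 FPKM without. Mt2A, of the same metal-binding family, had 2708, 2576 and 3287 FPKM with PDGF, against 265 and 159.9 FPKM without; reads of such close copies may have been split between them. Srxn1 (sulfiredoxin) had 335, 388 and 420.3 FPKM with PDGF and 10.6 and 7.49 FPKM without (5.26 ± 0.16, log2, SE, limma adjusted p = 4.33e-12). Hmox1 (haem oxygenase) had 246, 238 and 247 FPKM with PDGF and 22.9 and 25.9 FPKM without. The rest of the targets of Nrf2, the main oxidant-sensing factor, were less uniform. Txnrd1 and Gclc were called higher (0.99 and 0.698), while Nqo1, Gclm and Me1 did not pass the test, with differences of 0.17, 0.15 and 0.06 (log2).

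Genes that supply growth with building blocks were called mostly higher or not at all. Sat1, which acetylates polyamines for export, had 929, 904 and 994 FPKM with PDGF and 163 and 165 FPKM without, and Amd1 and Odc1, which make them, differed by 2.03 ± 0.14 and 0.99 ± 0.14 (log2, SE). Over the 20 polyamine and nucleotide genes tested, 8 were higher and 1 lower (5 higher without unstimulated library 0), and the purine genes Ppat, Paics, Gart and Atic did not pass the test. Of 20 cytosolic tRNA synthetase genes, 14 were higher and none was lower, with a median of 0.56 (log2); without unstimulated library 0 the count was 7. Cars had 77.8, 80.9 and 99.8 FPKM with PDGF and 31.7 and 33.7 FPKM without, the largest difference of the 20. Amino acid transport and synthesis genes gave 13 higher and 1 lower of 17, led by the cationic transporter gene Slc7a1 at 59.6, 92.6 and 75.1 FPKM with PDGF and 14.1 and 17.02 FPKM without. Slc38a2, the glutamine carrier, was the lower one (61.9, 72.8 and 81.5 FPKM with PDGF, 97.7 and 109.6 FPKM without).

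Of 18 chaperone genes of the endoplasmic reticulum, 10 were higher and none was lower, with Hspa5 (BiP) at 986, 974 and 1215 FPKM with PDGF and 335 and 392 FPKM without; without unstimulated library 0 the count was 5. Of 13 heat shock genes tested, 8 were higher and none was lower, and the co-chaperone gene Bag3 had 126, 158 and 174 FPKM with PDGF and 34.6 and 35.2 FPKM without. Ribosomal protein genes were mostly not called: 5 of 72 cytosolic ones were higher and none was lower, and of 66 mitochondrial ones 2 were higher and 7 lower (3 higher and 12 lower on the unnormalised scale). Their number of calls also depended on 1 library, with 0 cytosolic genes higher and 2 mitochondrial genes lower without unstimulated library 0. Of 32 complex I genes, 1 was lower and none was higher. Proteasome genes gave 14 higher and none lower of 38, but 4 higher without unstimulated library 0 and 8 without unstimulated library 1. With all libraries 36.8% of the proteasome genes tested were called, not far above the 30.4% of all genes tested. The steepest were the inducible subunits of the immunoproteasome, Psmb8, Psmb10 and Psmb9. Psmb8 had 8.99, 19.2 and 14.1 FPKM with PDGF and 5.36 and 4.098 FPKM without, and the Psmb8 and Psmb9 calls were lost without unstimulated library 1.

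Among chromatin and elongation factors, 8 of 16 tested were higher and 3 lower (4 higher without unstimulated library 0). Kdm6b, a histone demethylase gene of early responses, had 43.7, 59.9 and 58.9 FPKM with PDGF and 7.696 and 9.43 FPKM without. Cdk9, the kinase of the elongation factor P-TEFb, was higher by 0.56 ± 0.14 (log2, SE), and Hexim1, which holds that kinase inactive, was lower, at 18.3, 27.2 and 22.7 FPKM with PDGF and 39.8 and 36.6 FPKM without. Of the bromodomain genes that JQ1 targets, Brd3 was lower (11.5, 11.02 and 15.2 FPKM with PDGF, 26.1 and 25.99 FPKM without), and Brd2 did not pass the test (0.42 ± 0.27).

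**Figure D3:**
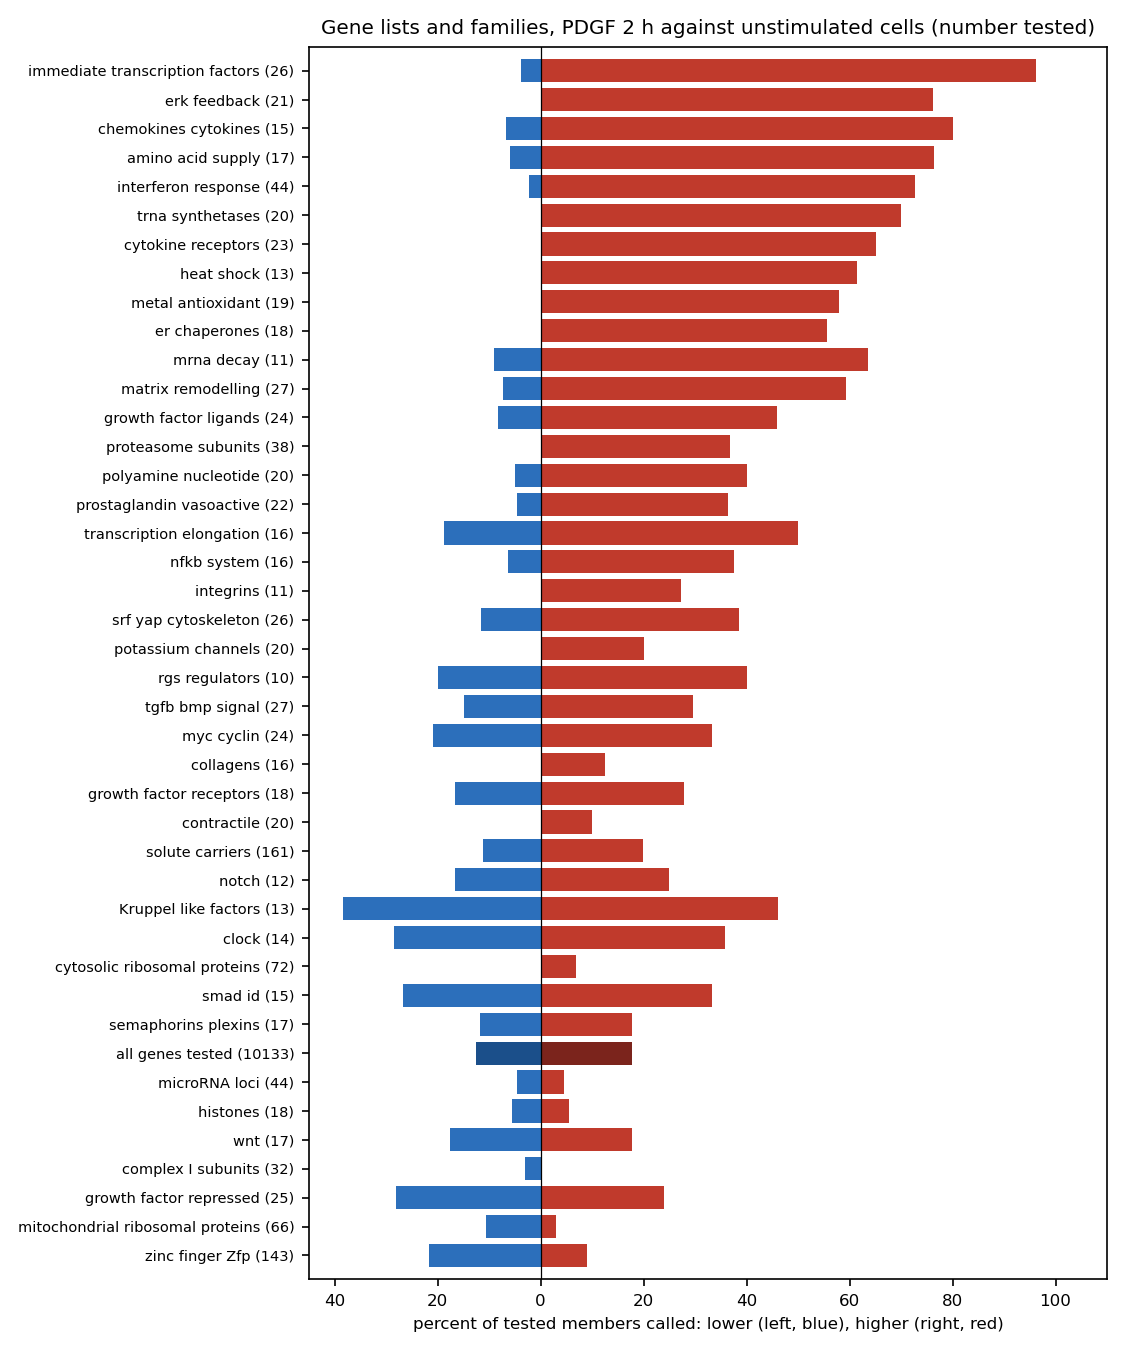
Percent of the tested members of each gene list or family called higher (red, right) or lower (blue, left) with PDGF at 2 h, with the number tested in brackets; the darker bar is all 10133 genes tested, at 17.7% higher and 12.7% lower. The early transcription factors (25 of 26 higher) are at the top and the Zfp family (31 of 143 lower) at the bottom.

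Most genes of the interferon response were higher at 2 h. Of the interferon genes, Ifnb1, Ifna1 and Ifng were looked at and were listed at 0. The list was drawn up after leading genes of this kind were seen among the calls, so its counts are a description. Such genes are switched on in most cells by interferons through factors that include Stat2 and Irf9, and code for sensors of viral RNA, antiviral enzymes and antigen presentation. Of 50 genes listed, 44 were tested; 32 were higher with PDGF and 1 was lower, with a median difference of 1.31 (log2). The counts were 31 higher and 3 lower without PDGF 2 h library 1 and the 24 h library of raised low values. Usp18, which codes for a brake on the interferon receptor, had 26.5, 27.9 and 26.9 FPKM in the PDGF 2 h libraries and 0.37 and 0.474 FPKM in the unstimulated libraries (4.303 ± 0.28, log2, SE, limma adjusted p = 1.05e-08). Irf7, the factor that amplifies the response, had 45.5, 60.6 and 46.8 FPKM with PDGF and 3.95 and 1.76 FPKM without. The interferon-inducible GTPase gene Ifi47 had 21.6, 39.2 and 26.02 FPKM with PDGF, against 0.221 and 0.862 FPKM without. Igtp, of the same GTPase family, had 29.4, 53.4 and 31.3 FPKM with PDGF, against 2.82 and 2.79 FPKM without.

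Genes of each arm of the response were among the higher ones. For antigen presentation, Tap1, the peptide transporter, had 59.8, 62.96 and 77.6 FPKM with PDGF and 7.29 and 6.74 FPKM without, while its partner gene Tap2 did not pass the test. B2m, the light chain of class I molecules, had 596, 532 and 631 FPKM with PDGF and 340.1 and 411 FPKM without. For sensing of viral RNA, Ifih1 had 26.2, 35.5 and 33.1 FPKM with PDGF and 3.47 and 2.56 FPKM without, and Ddx58 differed by 0.97 ± 0.21. Isg15, the ubiquitin-like modifier, had 21.3, 31.99 and 21.4 FPKM with PDGF and 1.49 and 5.29 FPKM without. Classic antiviral genes stayed low in absolute terms: Ifit1 had 2.67, 2.27 and 2.46 FPKM with PDGF, and Mx2 had 1.39, 11.6 and 2.05 FPKM with PDGF and was listed at 0 in both unstimulated libraries. Mx2 was uneven, with PDGF library 1 far above the other PDGF libraries.

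Of the genes of factors that act in interferon signalling, Stat2 and Irf9 were called higher. Stat2 had 33.6, 47.99 and 42.1 FPKM with PDGF and 13.9 and 17.1 FPKM without, and Irf9 24.99, 23.2 and 27.3 FPKM with PDGF and 11.4 and 13.5 FPKM without. Irf1, an early target of interferon gamma, had 6.46, 17.3 and 10.3 FPKM with PDGF and 12.2 and 8.300 FPKM without, groups that overlapped. The interferon genes Ifnb1, Ifna1 and Ifng were listed at 0 in all 5 libraries. A listing at 0 can be a failed estimate, as given above, and other interferon genes were not looked at here. Leukocyte markers are given above: 7 of 10, including Ptprc, were at 0 in all 5 libraries.

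**Figure D4:**
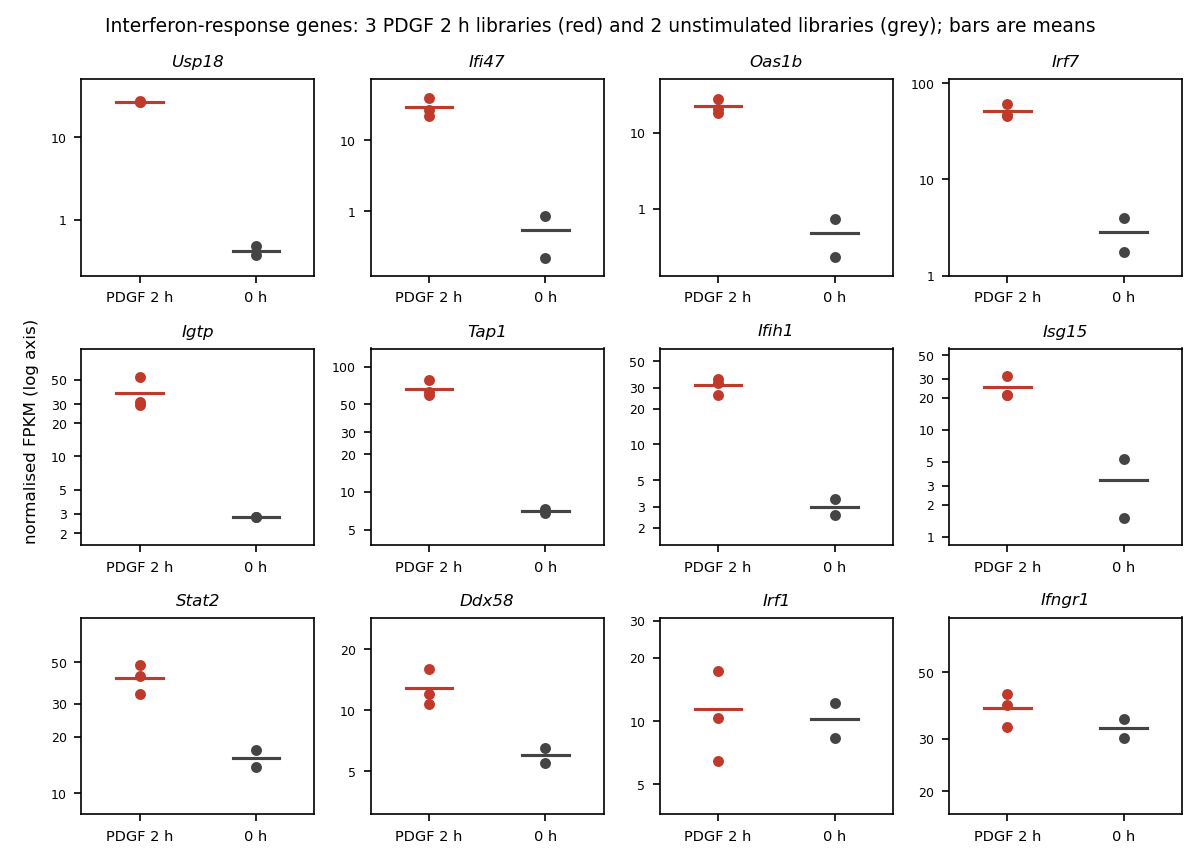
Normalised FPKM (y axis, log scale, a separate range for each gene) of 12 interferon-response genes in the 3 PDGF 2 h libraries (red, left) and the 2 unstimulated libraries (grey, right); short lines are means. Usp18 stands at 26.5, 27.9 and 26.9 with PDGF and 0.37 and 0.474 without, and the groups of Irf1 overlap.

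The promoters of 3 of the leading genes are printed because they show a motif that many windows of this list held. The motif GAAANNGAA (both strands), the core of the element bound by interferon-regulated factors, was chosen for the search after the list was seen. It was in 20 of 35 windows of the list (57.1%), in 17 of 25 windows of its called-higher genes (68.0%), and in 6.82% of all windows. Over all called-higher genes the share was 8.0%, and over called-lower genes 7.38%. The windows below are RefSeq's on GRCr8, each read 5′ to 3′ on the strand of its gene, with the motif in capitals: Oas1b (chr12:41395803-41396102, minus strand) held a pair of overlapping matches beginning 59 and 53 bases before the start, Irf7 (chr1:205799974-205800273, minus strand) held 1 on the opposite strand beginning 68 bases before, and Igtp (chr10:42874797-42875096, plus strand) held 1 beginning 103 bases before.
Oas1b: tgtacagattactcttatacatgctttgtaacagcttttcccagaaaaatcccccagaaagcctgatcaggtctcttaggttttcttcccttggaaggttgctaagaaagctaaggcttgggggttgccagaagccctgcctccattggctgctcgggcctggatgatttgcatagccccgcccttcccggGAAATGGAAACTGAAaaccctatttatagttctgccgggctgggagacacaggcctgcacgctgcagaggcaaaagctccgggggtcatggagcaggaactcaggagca
Irf7: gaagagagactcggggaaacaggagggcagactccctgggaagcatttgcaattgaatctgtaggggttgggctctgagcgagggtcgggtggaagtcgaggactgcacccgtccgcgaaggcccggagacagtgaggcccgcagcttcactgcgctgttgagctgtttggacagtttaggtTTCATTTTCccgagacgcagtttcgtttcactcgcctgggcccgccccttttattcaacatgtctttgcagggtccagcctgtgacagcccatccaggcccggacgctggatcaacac
Igtp: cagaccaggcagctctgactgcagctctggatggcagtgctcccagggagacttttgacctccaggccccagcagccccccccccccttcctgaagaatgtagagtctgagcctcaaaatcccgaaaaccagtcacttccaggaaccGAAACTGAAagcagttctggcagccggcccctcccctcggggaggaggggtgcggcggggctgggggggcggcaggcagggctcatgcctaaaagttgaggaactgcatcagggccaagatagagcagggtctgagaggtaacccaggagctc
Oas1b, which codes for an oligoadenylate synthetase, had 20.2, 27.7 and 18.3 FPKM with PDGF and 0.735 and 0.231 FPKM without. The window of Ifi47 held no match.

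Some genes were listed at 0 in 1 group throughout. In the unnormalised values, 59 genes were at 0 in both unstimulated libraries and above 0 in all 3 PDGF 2 h libraries, and 11 of them had 1 FPKM or more in each PDGF library. These included Prss22, Nfatc2, the hyaluronan synthase gene Has2, and the interferon-response genes Rtp4 and Mx2. Has2 had 2.16, 2.11 and 1.58 unnormalised FPKM with PDGF, and Nfatc2, a calcium-regulated factor, 2.87, 4.604 and 3.24. The reverse pattern held for 47 genes, of which 2, Fgf16 and Tssk3, had 1 FPKM or more in both unstimulated libraries. With 2 libraries in the unstimulated group a listing at 0 is met more easily there than in 3 libraries.

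The levels at 24 h of PDGF place the 2 h values in the time course of the series, given here as means ± SD over 2 unstimulated, 3 PDGF 2 h and 3 PDGF 24 h libraries with no test of the later point. Dusp5 stood at 1.34 ± 0.92, 149 ± 25.7 and 5.25 ± 0.605 FPKM at 0, 2 and 24 h, and Hbegf at 54.8 ± 1.74, 714 ± 96.5 and 22.4 ± 2.67 FPKM. Irf7 had 2.86 ± 1.55, 50.9 ± 8.38 and 8.51 ± 1.89 FPKM at the same times. These genes were nearer their 0 h level at 24 h than at 2 h. Smad6 was low only at 2 h among these times, at 14.8 ± 4.42, 0.897 ± 0.257 and 15.6 ± 2.22 FPKM at 0, 2 and 24 h. Pdgfrb had 353 ± 41.7, 225 ± 32.3 and 536 ± 13.1 FPKM and Txnip 66.3 ± 8.47, 3.15 ± 0.811 and 128 ± 14.7 FPKM, both above their 0 h level at 24 h. Kcnn4 differed between 2 h and 24 h by less than the SD, at 7.57 ± 0.485, 135 ± 26.99 and 144 ± 16.3 FPKM. Rgs4 was lower at each later time, at 83.3 ± 12.1, 25.9 ± 7.64 and 13.5 ± 1.34 FPKM.

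MicroRNA loci gave little in these libraries. Of 44 tested, 2 were higher and 2 lower, and these loci are short, hold values of 0 and lie within longer transcripts whose reads they may share. Mir3120, which shares its place with Mir214 on the opposite strand, had 116, 0.127 and 0.101 FPKM with PDGF and 455 and 133 FPKM without, and was listed at 0 before normalisation in 2 of the PDGF libraries. Mir214 had 124, 0.113 and 26.5 FPKM with PDGF and 235 and 203 FPKM without, with 1 PDGF library listed at 0 before normalisation, which shows the unevenness of such values. Mir155hg, the host transcript of the microRNA Mir155, had 9.88, 5.73 and 5.54 FPKM with PDGF and 1.02 and 4.31 FPKM without. None of the 4 calls held with no filter on low values.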

How the data were processed

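The authors deposited 2 tables with 1 column per library, one of unnormalised FPKM and one of normalised FPKM. Per the submitters' processing notes, HISAT and Cufflinks 2.0.0 were used with rat build rn6; neither the gene annotation nor the way of normalising is given in the sources used here. The files hold no counts, so depth is unknown and no counting interval is given. Columns carry numbers where the sample titles carry letters, so each column was tied to its group only, and libraries are called by the number in the file headers.

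The 92 spike-in rows were left out. Genes at 1 normalised FPKM or more in at least 2 of 14 libraries were kept (10133), and log2(normalised FPKM + 1) was fitted with limma 3.58.1 (R 4.3.3) over all 14 libraries in 5 groups (9 residual degrees of freedom, mean trend), with Benjamini-Hochberg adjustment over all genes tested and a threshold of 0.05. A permutation test of 3 against 2 libraries cannot go below p = 0.1 (10 splits, two-sided), so none was used. Tested on simulated data with 10133 genes for PDGF 2 h against unstimulated, the fit recovered 28.2% of 1.5-fold, 71.6% of 2-fold and 96.8% of 4-fold changes, with 2 false calls. The simulation changed far fewer genes than were called here, none of them of low level. Its noise was independent between genes and libraries, with no shift of a library. It therefore gives no error rate for the real comparison. The design was kept as written.

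The comparison, the gene lists and the marker lists were chosen with earlier results of these data known; the interferon list and its motif were added after seeing these values. Genes to name were the 15 highest and 15 lowest called genes whose groups do not overlap on either scale, up to 4 called members of each list, 10 fixed genes, the 10 largest differences in FPKM and up to 6 microRNA loci. Other named genes were chosen from the lists after their values were seen. List genes for which no row carried the symbol were not analysed here, and some genes and a gene family are not reported here. Promoter windows (RefSeq, GRCr8) matched 8231 of the 10133 genes by symbol, 496 of them by an older symbol. Alternatives changed the scale, pseudocount, filter, moderation, libraries in the fit or left out 1 library at a time.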

Additional observations from a re-analysis of the deposited data

How the results depend on the processing

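The 4 counts of calls moved past 1.5 times in a few settings. On unnormalised FPKM, 1957 genes were lower with PDGF, and after median centring of those values 1936, in place of 1282. With a pseudocount of 5 the counts at 2-fold or more were 500 higher and 104 lower, in place of 766 and 470. With only the 5 libraries in the fit (3 residual degrees of freedom), 1063 genes were higher and 474 lower. Leaving out 1 library at a time gave 1019 to 2043 genes higher and 582 to 1515 lower, and 669 to 916 higher and 354 to 535 lower by 2-fold or more, where the ends for all calls came without unstimulated library 0 (1019 and 582), PDGF library 0 (2043) and PDGF library 1 (1515). Leaving out an unstimulated library leaves 1, assumed to vary like the other groups. Added after seeing the data, a fit without PDGF 2 h library 1 and PDGF 24 h library 0 gave 1645 higher and 1552 lower. Other causes of these moves were not tested. Of 182 named genes, 179 were called, and 145 kept direction and call in all 14 alternatives; of 2540 values, 163 lost the call and none changed sign. No paired analysis was possible because the columns carry numbers that match no title letter and the groups share only 1 letter.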
